A study of Homo sapiens with 12 samples.

Results

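Methotrexate for 48 h was compared with no drug in HT29, an established line of human colon cancer cells, across all genes of one microarray. The comparison used 6 of the 12 arrays of a time course: the 3 labelled methotrexate 48 h, whose cells had 70 nM of the drug, and the 3 labelled control, whose cells had none. They were chosen by those titles. The 8 h and 24 h arrays of the same drug and dose, 3 each, entered one shared fit and are used here to place the 48 h values in time. All 12 arrays came from one line described as sensitive to the drug, grown in F12 medium with serum, and the titles call the arrays biological replicates. The control stands for 0 h in the design, and no untreated array at 48 h was analysed here, so the drug and 48 h of further culture cannot be told apart.

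Methotrexate is an antifolate. It blocks dihydrofolate reductase, the enzyme that returns dihydrofolate to the tetrahydrofolate pool, and so limits the one-carbon units that cells need for thymidylate, purines and some amino acids. Cells held short of thymidylate can enter the phase of DNA synthesis but complete it poorly. The gene of dihydrofolate reductase itself was not analysed here.

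Each value below is a log2 ratio of an array to the median of the 3 control arrays. That median was exactly 0 in all 28869 probe sets, so levels were not in the values, only differences. For this reason the colon identity of the cells could not be checked by level. Of 15 genes of epithelial identity 3 rose and 1 fell at 48 h. A gene's value is the mean of the probe sets that name it alone, which gave 18377 genes. Where 3 values are given together they are those of replicates 1, 2 and 3, in that order, and "rose" and "fell" are used of genes with an adjusted p under 0.05 in limma, a linear model fitted over all genes. The number of arrays limits the precision: the median standard error (SE) of a 48 h difference was 0.0659 on the log2 scale.

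One 48 h array stood apart. The root mean square difference over genes was 0.0941 between 48 h replicates 1 and 2, but 0.208 between replicates 1 and 3 and 0.184 between replicates 2 and 3. Replicate 3 also lay farther from control (0.296 to 0.326) than the other 48 h arrays did (0.256 to 0.278). Its distances to 24 h replicates 1 and 3 were 0.196 and 0.202. For 48 h replicate 1 they were 0.205 and 0.209, and for 48 h replicate 2 0.182 and 0.189. Only from 24 h replicate 2 was 48 h replicate 3 the farthest, at 0.249 against 0.170 and 0.161. The median standard deviation of a gene was 0.087 at 48 h, and 0.064 to 0.066 in control, 8 h and 24 h cells. Results are therefore given with replicate 3 and, where they rest on it, without it.

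**Figure D1:**
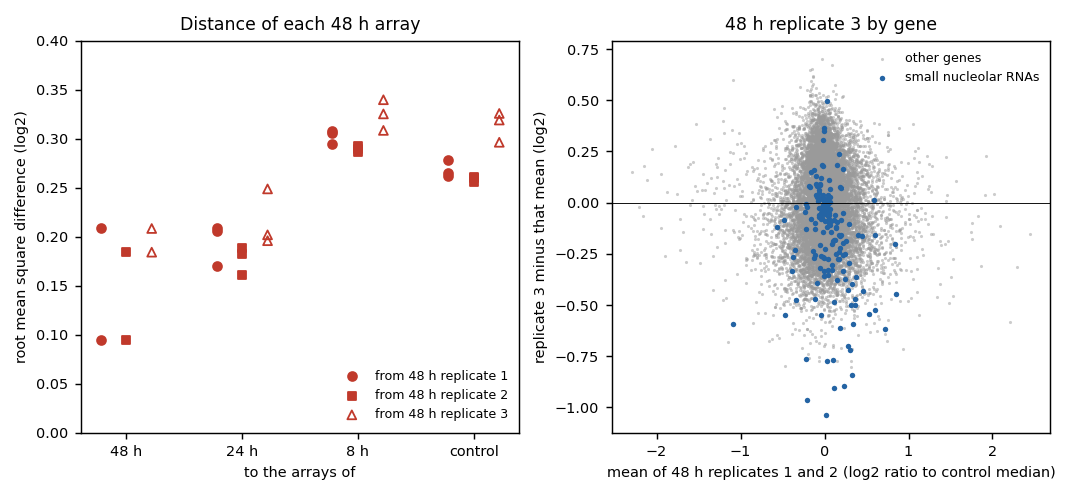
Left, root mean square difference over 18377 genes (log2 scale) from each 48 h array to the other 48 h arrays and to the 24 h, 8 h and control arrays. Right, each gene's value in 48 h replicate 3 minus the mean of replicates 1 and 2, against that mean, with small nucleolar RNAs in blue. Replicates 1 and 2 were 0.0941 apart and replicate 3 was 0.208 and 0.184 from them, and small nucleolar RNAs lay mostly below the line.

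Replicate 3 was higher than the mean of replicates 1 and 2 by at least 0.3 for 1000 genes (5.44%) and lower by as much for 1126 (6.13%), whereas replicates 1 and 2 differed by as much for 116 genes. These differences were not spread evenly over kinds of genes. Of 175 small nucleolar RNAs, the guides of ribosomal RNA modification, 41 (23.4%) were lower in replicate 3 and 4 were higher. Of 493 genes named as zinc finger proteins (ZNF), 92 (18.7%) were lower and 15 higher. Long non-coding RNAs leaned the other way, with 46 of 631 higher and 9 lower, and so did microRNA genes, with 17 of 173 higher and 4 lower. The largest deficits were those of SNORD45B (-1.04), SNORD58A (-0.96), SNORA22 (-0.91), SNORD42A (-0.90) and SNORD82 (-0.84), followed by the coiled-coil gene CCDC18 (-0.80), the mitotic kinesin CENPE (-0.80) and the centrosomal gene CEP170 (-0.77). SNORD45B, for example, had 0.03, 0.00 and -1.02 at 48 h, against -0.03, 0.00 and 0.14 in control cells. The largest excesses were those of LOC107987020 (0.70), TEX52 (0.67), SLX9 (0.65), FOXE1 (0.65), DEFB124 (0.62), DNASE1L2 (0.61), EIF4EBP1 (0.60) and H1-9P (0.59). Of these, EIF4EBP1, an inhibitor of cap-dependent translation, passed the test at 48 h in spite of it, with -1.09, -1.08 and -0.49 at 48 h, against -0.05, 0.00 and 0.17 in control cells; it fell by 0.93 (SE 0.14). These genes were picked by their difference in replicate 3, so the differences are a description. Whether RNA quality, hybridisation or the culture set replicate 3 apart was not tested.

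In the test across all genes, 4649 of 18377 (25.3%) differed between 48 h and control: 2388 rose (13%) and 2261 fell (12.3%). The counts of every gene list in this report are to be read beside these shares. Most differences were small. A change of at least 2-fold was reached by 163 genes (0.887%), 75 that rose (0.408%) and 88 that fell (0.479%), and at least 4-fold by 4 that rose and 6 that fell. The 3 values at 48 h lay outside the 3 control values for 4574 of the called genes, where 6568 of all genes (35.7%) had groups that did not overlap. Every called gene was on its called side of the control mean on all 3 arrays at 48 h. The calls were made on the mean of these same arrays, so this is no separate support for replicate 3. Without 48 h replicate 3, 4439 genes were called (24.2%), of which 3921 were also called with it, all in the same direction, and all 163 genes changed by 2-fold were among them. The median over all genes was 0.01 with replicate 3 and -0.01 without it. Probe sets outside the gene table were tested apart: of those that name several genes 20.2% passed (13% higher, 7.25% lower), and of those that name none 4% (1.99% higher, 2.01% lower).

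**Figure D2:**
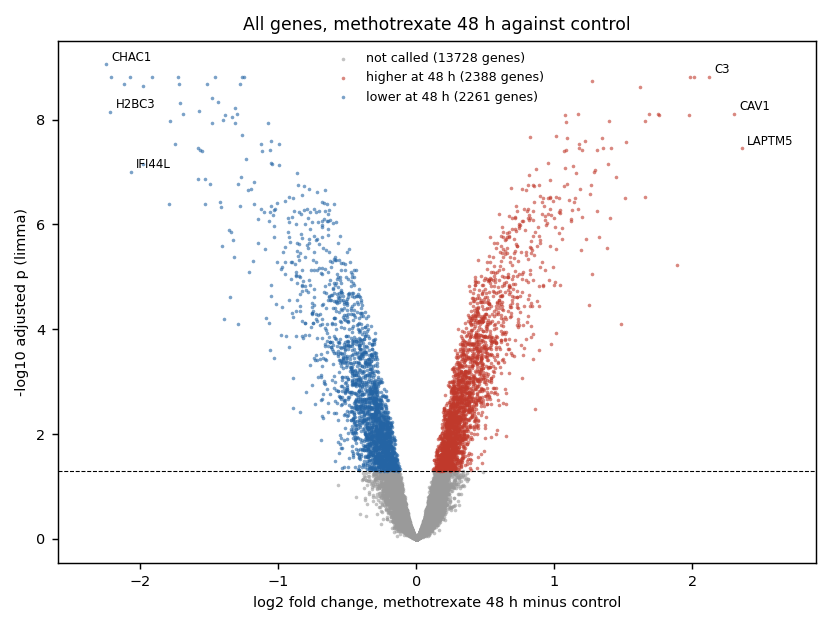
Each point is a gene, with the log2 fold change of methotrexate 48 h minus control on the x axis and -log10 of the adjusted p from limma on the y axis. Red points are the 2388 genes that rose, blue points the 2261 that fell, grey points the rest, and the dashed line marks an adjusted p of 0.05.

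Against the 24 h arrays, 1860 genes differed at 48 h (10.1%), 966 higher (5.26%) and 894 lower (4.86%). That count was the most dependent on single arrays: it was 1104 without 24 h replicate 1, 1103 without 24 h replicate 3 and 2149 without 48 h replicate 3. In the fit without 48 h replicate 3, 1201 of 18377 genes were higher than at 24 h and 948 lower. Against the 8 h arrays 5464 genes differed (29.7%), 2816 higher (15.3%) and 2648 lower (14.4%). Counts of list members against 24 h or 8 h are to be read beside these values. Of the 75 genes that rose at least 2-fold over control, 51 were further from control at 48 h than at 24 h and 2 were nearer to it. Of the 88 that fell as far, 35 were further from control and 10 nearer. These shares were not compared by a test.

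The largest rises were those of a membrane protein of lysosomes and a coat protein of caveolae. LAPTM5, the lysosomal protein, had 2.59, 2.31 and 2.30 at 48 h, against 0.00, 0.25 and -0.12 in control cells. CAV1, the coat protein caveolin-1, had 2.29, 2.30 and 1.98 at 48 h, against 0.00, -0.33 and 0.00 in control cells. All 48 h arrays were at least 1.98 above the control median for both genes. Only genes whose 48 h and control values did not overlap were ranked among the largest rises and falls. LAPTM5 rose 5.13-fold (log2 2.36, SE 0.13, limma adjusted p = 3.54e-08) and CAV1 4.92-fold (2.30, SE 0.10, adjusted p = 7.79e-09). At 24 h the differences from control were 1.53 for LAPTM5 and 1.62 for CAV1, and both were further up at 48 h.

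C3, the central protein of the complement cascade, had 2.12, 2.06 and 1.97 at 48 h, against 0.01, 0.00 and -0.22 in control cells. The cytokine IL32 had 2.01, 2.03 and 2.07 at 48 h, against -0.05, 0.00 and 0.20 in control cells. Both were nearer to control at earlier times, and all 3 arrays at 48 h were high: C3 differed from control by -0.17 at 8 h, 0.63 at 24 h and 2.12 (SE 0.08) at 48 h, and IL32 by -0.24, 0.35 and 1.99 (SE 0.07). Their adjusted p at 48 h was 1.53e-09 for C3 and 1.53e-09 for IL32. Other membrane proteins among the 20 largest rises were EMP3 (2.02), the adhesion molecule MCAM (1.97), the bladder plaque protein UPK2 (1.66), the receptor tyrosine kinase AXL (1.62), LRRN1 (1.48) and the iron-binding MELTF (1.41). Secreted proteins were the kallikrein KLK5 (1.66), the urokinase PLAU (1.52), SRPX2 (1.51), the retinol carrier RBP4 (1.45) and the cytokine IL18 (1.40). The remaining ones were CDA, cytidine deaminase (1.76), the ETS transcription factor ELF5 (1.69), SH3TC2 (1.75), the long non-coding RNA UCA1 (1.39) and the actin-like ACTBL2 (1.89). ACTBL2 resembles other actin genes, so its value is uncertain, and it was not called after quantile normalization of the ratios. That step gives all arrays the same distribution and so widens the narrow control arrays. Each call described below as lost after it is to be read with this limit. IL18 at 48 h had 1.54, 1.53 and 1.08, and its difference from 24 h (-0.06) did not pass the test.

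**Figure D3:**
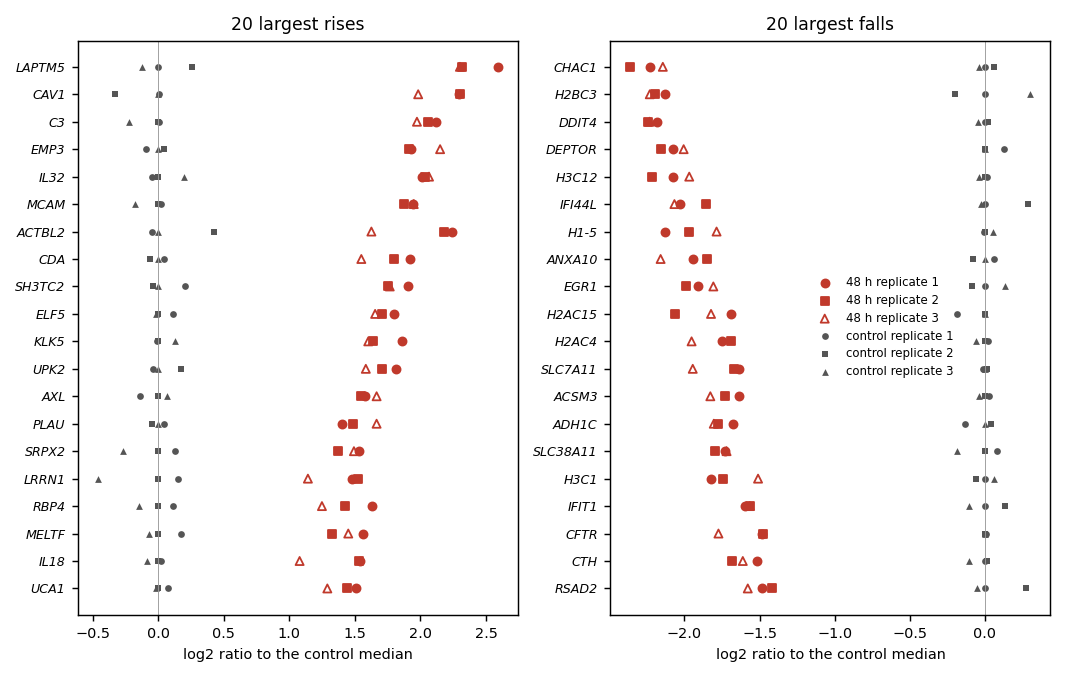
Log2 ratio to the control median on each of the 6 arrays for 20 genes that rose most and 20 that fell most at 48 h. Small and miscellaneous RNAs, pseudogenes and genes with LOC or open reading frame names were not ranked. Red symbols are 48 h arrays, with replicate 3 as open triangles, and grey symbols control arrays. Only genes whose 48 h values lie apart from the control values were ranked, so the gap in every row was fixed by the choice.

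The largest falls held genes of amino acid supply, histones and targets of interferon, which are described in turn below, and single genes of other roles. DEPTOR, an inhibitor of the growth kinase mTOR, had -2.08, -2.15 and -2.01 at 48 h, against 0.13, 0.00 and 0.00 in control cells. EGR1, an immediate early transcription factor, had -1.91, -1.99 and -1.81 at 48 h, against 0.00, -0.09 and 0.13 in control cells. ANXA10, an annexin, had -1.94, -1.85 and -2.16 at 48 h, against 0.06, -0.08 and 0.00 in control cells. All 48 h values of these genes were at least 1.81 below the control median. DEPTOR fell 4.35-fold (-2.12, SE 0.08, limma adjusted p = 2.06e-09), EGR1 3.78-fold (-1.92, SE 0.07, adjusted p = 1.53e-09) and ANXA10 3.94-fold (-1.98, SE 0.08, adjusted p = 2.23e-09). ANXA10 was late: it stood at 0.04 after 8 h, -0.57 after 24 h and -1.98 after 48 h. The acyl-CoA synthetase ACSM3 also deepened with time (-0.42, -0.89 and -1.73 at 8, 24 and 48 h). The alcohol dehydrogenase ADH1C (-1.66, -1.64 and -1.72), the transporter gene SLC38A11 (-1.29, -1.86 and -1.71) and the chloride channel CFTR (-1.12, -1.55 and -1.58) had most of their difference by 24 h, and none of the 3 differed between 48 h and 24 h by the test.

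Among 23 measured genes of folate uptake and use 4 rose and 8 fell, with a median of -0.12, where the median over all genes was 0.01. TYMS, thymidylate synthase, which makes the thymidylate whose supply the drug limits, had 0.80, 0.78 and 0.68 at 48 h, against 0.12, -0.01 and 0.00 in control cells. It rose 1.65-fold (0.72, SE 0.05, adjusted p = 4.35e-07) with no overlap, and stood at 0.70 at 8 h and 0.68 at 24 h. FOLR1, a folate receptor, had 0.64, 0.53 and 0.59 at 48 h, against -0.02, 0.00 and 0.07 in control cells. Its difference from control was -0.84 at 8 h, -0.18 at 24 h and 0.57 (SE 0.06) at 48 h, so its order against control turned over the course. Among the members that fell were 4 of mitochondrial one-carbon metabolism, which is no list of its own here: MTHFD1L fell by 0.71 (SE 0.07), MTHFD2 by 0.55 (SE 0.06), the mitochondrial folate carrier SLC25A32 by 0.46 (SE 0.08) and SHMT2, a serine hydroxymethyltransferase, by 0.32 (SE 0.05). MTHFD2 had -0.55, -0.42 and -0.63 at 48 h, against 0.00, -0.03 and 0.06 in control cells and a mean difference of -0.01 at 24 h. Of the genes that move or retain the drug, GGH, which trims polyglutamate tails, rose by 0.30 (SE 0.07, adjusted p = 0.00902). The carrier SLC19A1 (0.04, SE 0.06, adjusted p = 0.75) and the polyglutamate-adding FPGS (-0.12, SE 0.07, adjusted p = 0.272) did not pass the test, and their 48 h and control values overlapped. GGH and SLC25A32 were not called after quantile normalization of the ratios, and FPGS passed as lower with array weights or without replicate 3 of both groups.

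Of 19 genes of purine synthesis and salvage 4 rose and 4 fell (median -0.08). In the pathway of synthesis GART fell by 0.31 (SE 0.07), ATIC, the enzyme of the last steps, by 0.30 (SE 0.05) and ADSL by 0.30 (SE 0.04), and none of the 3 had been lower than control at 8 h, where their differences were 0.33, 0.22 and 0.13. Against the 8 h arrays 15 of the 19 genes were lower at 48 h and 3 higher, where 14.4% of all genes were lower. ADA, adenosine deaminase, rose by 0.41 (SE 0.06). Of 22 genes of pyrimidine and deoxynucleotide synthesis 8 rose and 6 fell (median 0.06). CDA, which deaminates cytidine, had 1.92, 1.79 and 1.55 at 48 h, against 0.04, -0.06 and 0.00 in control cells. It rose 3.39-fold (SE 0.08 on the log2 scale, adjusted p = 7.97e-09), and replicate 3 was its lowest 48 h value. Thymidine kinase TK1 rose by 0.59 (SE 0.07). RRM2, a ribonucleotide reductase subunit, rose by 0.21 (SE 0.05, adjusted p = 0.00998), less than the 0.65 at 8 h. The alternative small subunit RRM2B fell by 0.34 (SE 0.07), the ectoenzyme NT5E by 0.45 (SE 0.07) and deoxycytidylate deaminase DCTD by 0.31 (SE 0.05). ADSL, RRM2, RRM2B and NT5E were not called after quantile normalization.

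Genes of DNA replication and of the step from G1 to S phase were higher as a group: 38 of 58 rose and 3 fell, with a median of 0.36 on the log2 scale, and without 48 h replicate 3 the counts were 40 and 2. CDT1, which loads the replicative helicase, had 1.15, 0.97 and 1.44 at 48 h, against 0.12, 0.00 and -0.15 in control cells. It rose 2.29-fold (1.20, SE 0.11, adjusted p = 3.03e-06), with replicate 3 the highest and no overlap. POLA2, a subunit of the priming polymerase, rose by 0.83 (SE 0.06), the fork protein TIMELESS by 0.75 (SE 0.08) and the transcription factor E2F1 by 0.67 (SE 0.05). The origin recognition subunit ORC5 went the other way, with -0.72, -0.66 and -0.94 at 48 h, against 0.00, 0.03 and -0.03 in control cells, and fell by 0.78 (SE 0.07). Cyclin E2, CCNE2, which was 0.97 above control at 8 h and 0.25 at 24 h, was back at control at 48 h (-0.05, SE 0.06, adjusted p = 0.624), with overlapping values. Against 24 h, 0 of the 58 genes were higher and 12 lower at 48 h. Of 34 DNA repair genes 16 rose and 0 fell (median 0.22), and 20 and 0 without replicate 3, whose own median was 0.08 where replicates 1 and 2 had 0.32 and 0.29. The checkpoint mediator MDC1 rose by 0.72 (SE 0.07), the ubiquitin ligase RAD18 by 0.68 (SE 0.08), BRCA1 by 0.66 (SE 0.07) and RAD54L, of homologous recombination, by 0.60 (SE 0.06). RAD18 was not called after quantile normalization.

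Histones were the group with the lowest median. Replication-dependent histone genes are normally read in S phase, when new DNA is packed. Of 48 measured histone genes 42 fell and 0 rose, with a median of -0.99, and 23 fell by at least 2-fold; without replicate 3, 41 fell. H2BC3 had -2.13, -2.20 and -2.23 at 48 h, against 0.00, -0.20 and 0.30 in control cells. H3C12 had -2.08, -2.22 and -1.97 at 48 h, against 0.02, 0.00 and -0.04 in control cells, and H1-5, a linker histone, -2.13, -1.97 and -1.79 at 48 h, against -0.01, 0.00 and 0.06 in control cells. The groups lay far apart on every array. H2BC3 fell 4.66-fold (-2.22, SE 0.10, adjusted p = 7.08e-09), H3C12 4.23-fold (-2.08, SE 0.07, adjusted p = 1.53e-09) and H1-5 3.94-fold (-1.98, SE 0.11, adjusted p = 7.01e-08). H2AC15 fell by 1.80, H2AC4 by 1.79 and H3C1 by 1.69. Many of these genes are near-identical copies whose probes can read each other, so the single values are uncertain. Against 24 h, 9 of the 48 were higher and 2 lower at 48 h, and against 8 h 4 were higher and 36 lower. The replication genes and the histone genes, both tied to S phase, thus stood on opposite sides of control.

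Promoters of 2 of these histone genes are shown because the octamer, a short element named for its 8 letters ATTTGCAT, was frequent in the group: searched on both strands from 250 bases before to 50 after the gene start, it was in 21 of 43 histone promoters with a sequence and in 229 of 14210 promoters of measured genes (1.61%). The letters CCAAT were in 39 of the 43 and in 36.3% of all. They were also frequent in lists that did not fall: 14 of 17 promoters of cholesterol synthesis and 34 of 44 of mitosis. In the list of heat shock and the unfolded protein response they were in 19 of 24. The sequences are RefSeq's on GRCh38.p14, 5′ to 3′ on the gene's strand, with the octamer, or its reverse complement, in capitals. H2BC3 (chr6:26043664-26043963, minus strand) holds it at -120 and H2AC4 (chr6:26033569-26033868, minus strand) at -118 from the start.
H2BC3: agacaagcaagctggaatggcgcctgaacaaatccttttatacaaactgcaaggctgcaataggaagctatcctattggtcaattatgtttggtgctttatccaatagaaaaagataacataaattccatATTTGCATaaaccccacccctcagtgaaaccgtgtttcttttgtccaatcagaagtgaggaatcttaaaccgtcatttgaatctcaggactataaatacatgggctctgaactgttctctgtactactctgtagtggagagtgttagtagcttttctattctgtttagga
H2AC4: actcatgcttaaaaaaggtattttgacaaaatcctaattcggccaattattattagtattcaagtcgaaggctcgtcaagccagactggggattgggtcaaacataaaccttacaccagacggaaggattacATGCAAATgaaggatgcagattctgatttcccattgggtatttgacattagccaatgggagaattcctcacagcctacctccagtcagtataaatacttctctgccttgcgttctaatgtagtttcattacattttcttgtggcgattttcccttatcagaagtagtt
A match is a description of letters in the window. It says nothing of what bound there in these cells.

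Among 51 genes of mitosis and the spindle 14 rose and 6 fell with a median of 0.05, and 18 and 5 without replicate 3. The medians by array were 0.14, 0.10 and -0.08, so the third array was on the other side of 0. The transcription factor FOXM1 rose by 0.61 (SE 0.05) and the centromere gene CENPI by 0.64 (SE 0.09). The kinase AURKA had -0.58, -0.58 and -0.74 at 48 h, against 0.00, -0.04 and 0.00 in control cells, and fell by 0.62 (SE 0.06). HMMR, a spindle protein, had -0.53, -0.60 and -1.21 at 48 h, lowest in replicate 3, and fell by 0.75 (SE 0.14; log2 -0.54 without replicate 3). MKI67, the gene of the Ki-67 proliferation marker, had 0.21, 0.27 and -0.21 at 48 h, against 0.00, 0.02 and -0.10 in control cells. The arrays at 48 h were split, replicates 1 and 2 high and replicate 3 low: the difference was 0.12 (SE 0.11, adjusted p = 0.547), and 0.27 with adjusted p = 0.0345 without replicate 3. Against 24 h, 15 of the 51 were higher at 48 h and 0 lower, and without 48 h replicate 3 24 and 0. Of all genes 5.26% were higher than at 24 h, and without that array 1201 of 18377.

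HT29 carries a mutant p53. Targets of p53 moved in both directions: 7 of 28 rose (25%) and 8 fell (28.6%), with a median of 0.00. Of all genes 13% rose and 12.3% fell. SFN, the 14-3-3 sigma protein, had 0.75, 0.73 and 0.88 at 48 h, against 0.00, 0.06 and -0.05 in control cells, and rose by 0.78 (SE 0.06). DDB2, of nucleotide excision repair, rose by 0.63 (SE 0.06). CDKN1A, the p21 inhibitor of the cell cycle, had 0.27, 0.23 and 0.46 at 48 h, against 0.00, -0.02 and 0.00 in control cells; it rose by 0.32 (SE 0.06, adjusted p = 0.00216), having been -0.45 at 8 h. TP53INP1 had 0.77, 0.58 and 0.18 at 48 h, against 0.00, 0.06 and -0.05 in control cells, and rose by 0.51 (SE 0.11); replicate 3 was its lowest and the call was lost after quantile normalization. SESN2 fell by 1.30 (SE 0.06) and PMAIP1, a BH3-only inducer of apoptosis, by 0.69 (SE 0.12); both also respond to amino acid stress. Of 32 apoptosis regulators 7 rose (21.9%) and 4 fell (12.5%, near the 12.3% of all genes), with a median of 0.11. The death receptor FAS rose by 0.38 (SE 0.08) and BOK by 0.39 (SE 0.08), and CYCS, cytochrome c, fell by 0.53 (SE 0.08). FAS was not called after quantile normalization.

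Genes of the integrated stress response, which the factor ATF4 drives when amino acids run short, were lower as a group. Of 36 measured, 29 fell and 1 rose, with a median of -0.53, and without replicate 3 the counts were the same. CHAC1, which degrades glutathione, had -2.23, -2.36 and -2.14 at 48 h, against 0.00, 0.06 and -0.04 in control cells. DDIT4, an inhibitor of mTOR, had -2.18, -2.24 and -2.23 at 48 h, against 0.00, 0.02 and -0.04 in control cells. SLC7A11, the cystine importer, had -1.64, -1.67 and -1.94 at 48 h, against -0.01, 0.02 and 0.00 in control cells. All 48 h values were at least 1.64 below the control median. CHAC1 fell 4.76-fold (-2.25, SE 0.06, adjusted p = 8.82e-10), DDIT4 4.63-fold (-2.21, SE 0.08, adjusted p = 1.56e-09) and SLC7A11 3.37-fold (-1.75, SE 0.09, adjusted p = 2.95e-08). The serine synthesis enzyme PSAT1 fell by 1.46 (SE 0.05), CTH, which makes cysteine, by 1.57 (SE 0.07) and ASNS, asparagine synthetase, by 1.44 (SE 0.06). ASNS is outside the rule for named genes and was added after its values were seen. The falls were not steady in time. CHAC1 differed from control by -1.98 after 8 h, -1.27 after 24 h and -2.25 after 48 h, and ASNS by -1.19, -0.47 and -1.44. Against 24 h, 21 of the 36 genes were lower at 48 h and 1 higher, where 4.86% of all genes were lower.

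Aminoacyl-tRNA synthetases, which load amino acids on their tRNAs and are in part targets of the same response, held 16 of 19 members that fell and 0 that rose (median -0.46; also 16 and 0 without replicate 3). GARS1, for glycine, had -0.76, -0.76 and -0.90 at 48 h, against 0.00, 0.00 and 0.01 in control cells, and fell by 0.81 (SE 0.05, adjusted p = 1.81e-07). The enzymes for glutamate and proline (EPRS1), methionine (MARS1), threonine (TARS1) and tryptophan (WARS1) fell by 0.75, 0.72, 0.71 and 0.64. Of the 19, 15 were lower at 48 h than at 24 h. For WARS1, also a target of interferon, the 8 h difference (-0.81) exceeded that at 48 h.

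Promoters of CHAC1 and ASNS are shown for the amino acid response element, searched as TGATGNAA on both strands. It was in 6 of 16 synthetase promoters and 6 of 30 promoters of the integrated stress response list, against 361 of 14210 (2.54%). CHAC1 (chr15:40953221-40953520, plus strand) holds it once, at -209, as its reverse complement, and ASNS (chr7:97872359-97872658, minus strand) once, at -68. Capitals mark it.
CHAC1: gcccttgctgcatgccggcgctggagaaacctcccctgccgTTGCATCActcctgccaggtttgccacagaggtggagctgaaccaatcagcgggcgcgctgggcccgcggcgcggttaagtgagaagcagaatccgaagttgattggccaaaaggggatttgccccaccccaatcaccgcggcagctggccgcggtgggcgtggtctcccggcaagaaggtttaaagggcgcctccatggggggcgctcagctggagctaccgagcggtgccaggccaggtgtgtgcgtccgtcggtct
ASNS: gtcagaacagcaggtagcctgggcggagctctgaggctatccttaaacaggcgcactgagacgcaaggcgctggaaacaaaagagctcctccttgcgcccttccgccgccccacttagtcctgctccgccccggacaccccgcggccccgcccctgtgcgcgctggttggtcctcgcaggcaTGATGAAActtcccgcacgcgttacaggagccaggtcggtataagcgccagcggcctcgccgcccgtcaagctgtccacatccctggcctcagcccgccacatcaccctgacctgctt

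**Figure D4:**
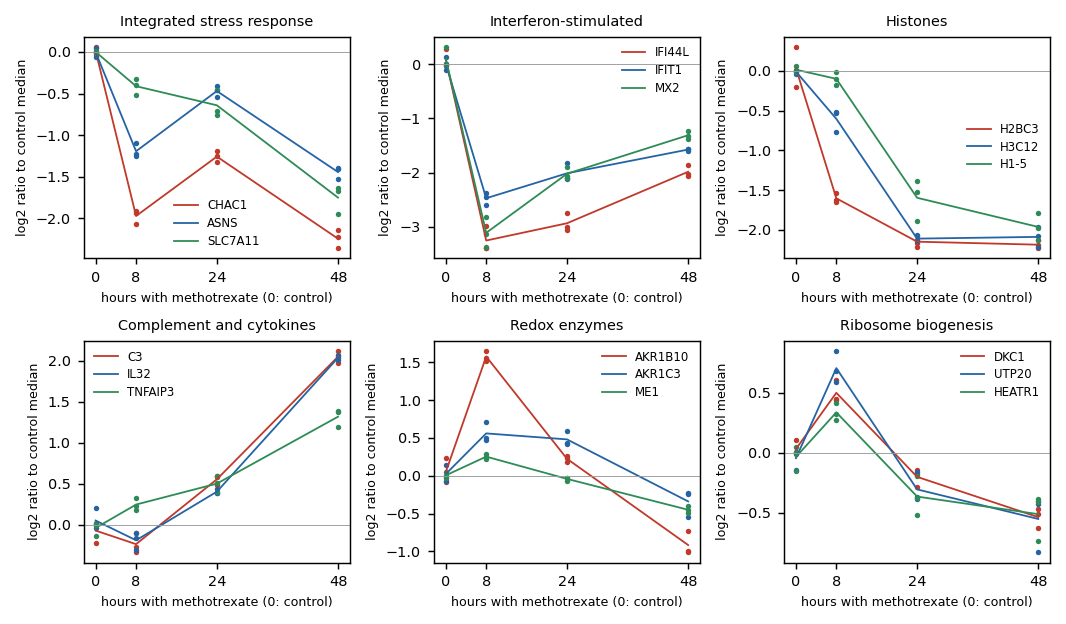
Log2 ratio to the control median for 3 genes in each of 6 groups at 0 (control), 8, 24 and 48 h of methotrexate. Points are arrays, 3 for each time, and lines join the means. CHAC1 and ASNS were lower at 8 and 48 h than at 24 h, the interferon-stimulated genes were lowest at 8 h, and C3 and IL32 were highest at 48 h.

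Interferon-stimulated genes, the antiviral genes that type I interferon switches on, were also lower: 40 of 47 fell and 0 rose, with a median of -0.60 (41 and 0 without replicate 3). IFI44L had -2.03, -1.86 and -2.07 at 48 h, against 0.00, 0.28 and -0.03 in control cells. IFIT1, which binds viral RNA, had -1.60, -1.56 and -1.57 at 48 h, against 0.00, 0.14 and -0.11 in control cells. RSAD2, the antiviral enzyme viperin, had -1.49, -1.42 and -1.58 at 48 h, against 0.00, 0.28 and -0.05 in control cells. The 3 arrays at 48 h were close to each other for each gene and lay below every control array. IFI44L fell 4.2-fold (-2.07, SE 0.12, adjusted p = 1e-07), IFIT1 3-fold (-1.58, SE 0.08, adjusted p = 3.52e-08) and RSAD2 2.96-fold (-1.57, SE 0.08, adjusted p = 3.85e-08). The RNA sensor RIGI fell by 1.53 (SE 0.11) and OAS2, which makes oligoadenylates, by 1.49 (SE 0.09). At 48 h the group was nearer to control than before: IFI44L stood at -3.34 after 8 h, -3.02 after 24 h and -2.07 after 48 h. Of the 47 genes, 25 were higher at 48 h than at 24 h and 0 lower, where 5.26% of all genes were higher, and 39 were higher than at 8 h and 1 lower, where 15.3% of all genes were higher.

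Promoters of IFI44L and IFIT1 are printed with the core of the interferon-stimulated response element in capitals. It was searched as GAAANNGAA on both strands and was in 26 of 37 promoters of the group, against 968 of 14210 (6.81%). The group was not alone in this: antigen presentation genes, described next, held it in 9 of 15 promoters and histone genes in 16 of 43. IFI44L (chr1:78620198-78620497, plus strand) holds it 2 times, the first at -164, and IFIT1 (chr10:89392373-89392672, plus strand) 2 times as the reverse complement, the first at -115.
IFI44L: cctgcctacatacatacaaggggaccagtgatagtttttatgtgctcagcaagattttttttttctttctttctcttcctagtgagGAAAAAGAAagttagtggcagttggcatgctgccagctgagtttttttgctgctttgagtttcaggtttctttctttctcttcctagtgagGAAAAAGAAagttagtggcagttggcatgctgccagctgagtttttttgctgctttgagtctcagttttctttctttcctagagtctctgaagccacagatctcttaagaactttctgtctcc
IFIT1: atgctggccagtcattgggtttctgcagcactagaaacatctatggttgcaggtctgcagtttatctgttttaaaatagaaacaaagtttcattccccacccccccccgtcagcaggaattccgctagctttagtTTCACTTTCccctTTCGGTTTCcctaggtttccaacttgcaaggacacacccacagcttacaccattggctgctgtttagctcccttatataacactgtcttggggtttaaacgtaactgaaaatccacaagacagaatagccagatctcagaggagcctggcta

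Antigen presentation genes, many of which interferon also raises, did not follow. Of 17 measured 9 rose and 0 fell (median 0.22; 9 and 0 without replicate 3), and 10 were higher at 48 h than at 24 h. ICAM1, an adhesion molecule of immune contact, had 0.79, 0.78 and 0.71 at 48 h, against -0.07, 0.05 and 0.00 in control cells, and rose by 0.77 (SE 0.08, adjusted p = 1.08e-05) after -0.51 at 8 h. The peptide-loading chaperone TAPBP rose by 0.39 (SE 0.05), the peptide-trimming ERAP1 by 0.39 (SE 0.09), CD58 by 0.45 (SE 0.10) and the immunoproteasome subunit PSMB8 by 0.38 (SE 0.07). ERAP1 and CD58 were lowest in replicate 3, with 0.49, 0.50 and 0.16 and 0.56, 0.60 and 0.13 at 48 h. TAPBP, ERAP1, CD58 and PSMB8 were not called after quantile normalization.

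Targets of NF-kB, cytokines and chemokines were higher: 23 of 34 rose and 2 fell, with a median of 0.35 (22 and 2 without replicate 3), and 14 were higher than at 24 h with 0 lower. TNFAIP3, the feedback inhibitor A20, had 1.37, 1.39 and 1.19 at 48 h, against 0.00, 0.02 and -0.13 in control cells. It rose 2.56-fold (1.36, SE 0.07, adjusted p = 3.41e-08), with 0.54 at 24 h. CXCL8, the neutrophil chemokine, had 1.21, 1.11 and 0.93 at 48 h, against 0.24, 0.00 and -0.11 in control cells, and rose by 1.04 (SE 0.11). CCL28, a chemokine of mucosal epithelia, had 1.13, 1.13 and 0.58 at 48 h, against 0.05, 0.00 and -0.13 in control cells, and rose by 0.97 (SE 0.14); replicate 3 was the lowest of the 3, still above control. IL32 and IL18, described above, were the largest rises of the list. CXCL8 was not called after quantile normalization.

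Promoters of TNFAIP3 and IL32 are printed with the core of an NF-kB motif in capitals, searched as GGGNNTTTC on both strands. It was in 12 of 27 promoters of the list, against 678 of 14210 (4.77%). TNFAIP3 (chr6:137867009-137867308, plus strand) holds it 2 times as the reverse complement, the first at -66, and IL32 (chr16:3065153-3065452, plus strand) once, at -99. The motifs of this report were chosen with results of these data known. Their shares count all list members with a promoter sequence, called or not. Targets of interferon and NF-kB were put in these lists as such, so a high share follows in part from the choice of members. It is no result about 48 h of the drug.
TNFAIP3: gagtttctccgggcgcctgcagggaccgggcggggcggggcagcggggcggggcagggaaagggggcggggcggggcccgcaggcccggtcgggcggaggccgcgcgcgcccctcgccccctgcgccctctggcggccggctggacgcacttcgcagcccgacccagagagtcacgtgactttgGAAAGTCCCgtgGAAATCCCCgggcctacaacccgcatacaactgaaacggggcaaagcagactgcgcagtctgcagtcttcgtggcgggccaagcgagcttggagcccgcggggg
IL32: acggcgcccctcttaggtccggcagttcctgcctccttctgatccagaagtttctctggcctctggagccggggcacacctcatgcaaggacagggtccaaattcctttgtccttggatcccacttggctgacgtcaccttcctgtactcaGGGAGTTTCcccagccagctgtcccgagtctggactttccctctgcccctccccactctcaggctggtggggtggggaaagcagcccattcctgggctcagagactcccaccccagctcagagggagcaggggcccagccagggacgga

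Of 20 genes of complement and the acute phase 8 rose and 1 fell (median 0.13, and 8 and 1 without replicate 3). Beside C3 and PLAU, the urokinase receptor PLAUR rose by 0.61 (SE 0.05) and complement factor B, CFB, by 0.61 (SE 0.09). CFB had 0.54, 0.72 and 0.65 at 48 h, against 0.00, 0.25 and -0.17 in control cells, clear of control, and had been -0.99 at 8 h and -0.30 at 24 h. The antiprotease SERPINA3 fell by 0.51 (SE 0.07), a smaller difference than the -1.49 at 8 h. Kallikreins, serpins and other protease inhibitors had 12 of 23 members that rose and 2 that fell (median 0.25). KLK5, a secreted serine protease, had 1.86, 1.64 and 1.60 at 48 h, against -0.01, 0.00 and 0.13 in control cells, and rose by 1.66 (SE 0.08, adjusted p = 1.08e-08). The elastase inhibitor PI3 rose by 1.12 (SE 0.09), the metalloproteinase inhibitor TIMP2 by 0.86 (SE 0.07), the granzyme inhibitor SERPINB9 by 0.81 (SE 0.09) and the leukocyte protease inhibitor SLPI by 0.57 (SE 0.07). CFB was not called after quantile normalization.

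Of 36 genes of matrix, adhesion and the mesenchymal state 15 rose and 1 fell, with a median of 0.15, and the same counts were found without replicate 3. After CAV1 the largest rises were those of FN1, fibronectin, with 1.16, 1.04 and 0.77 at 48 h, against 0.00, 0.08 and -0.11 in control cells, and CCN1, a matricellular protein, with 0.97, 1.0 and 1.07 at 48 h, against 0.00, 0.26 and -0.02 in control cells. FN1 rose 2-fold (SE 0.10 on the log2 scale) and CCN1 1.91-fold (SE 0.07). The caveolar coat gene CAVIN1 rose by 0.73 (SE 0.05) but was lower than at 24 h (1.03), whereas TGFB2, a growth factor of the TGF-beta family, rose by 0.64 (SE 0.07), with 0.11 at 24 h. Microtubule and actin genes included 12 that rose and 1 that fell, of 26 measured (median 0.13), and 9 and 0 without replicate 3. TUBA1A, an alpha tubulin, had 0.73, 0.79 and 1.10 at 48 h, against 0.00, 0.06 and -0.12 in control cells, and rose by 0.89 (SE 0.09), highest in replicate 3. ACTA2, smooth muscle actin, rose by 0.59 (SE 0.06) and tropomyosin TPM2 by 0.31 (SE 0.06). Tubulin and actin genes are families of alike sequence, so their single values are uncertain. CCN1 and TPM2 were not called after quantile normalization.

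ACTA2 also belongs to a list of fibroblast markers, of which 2 of 18 rose and 0 fell, the other being S100A4 (0.51). Of 19 leukocyte and endothelial markers 2 rose and 0 fell: CD68, a lysosomal glycoprotein, had 1.07, 0.92 and 1.19 at 48 h, against -0.07, 0.02 and 0.00 in control cells, and rose by 1.08 (SE 0.06), and CD4 rose by 0.48 (SE 0.07). The line holds neither cell type and the other members of both lists did not pass the test, with medians of 0.03 for fibroblast and 0.06 for leukocyte and endothelial markers, the second list at -0.01, 0.01 and 0.12 on the 3 arrays. Of the epithelial identity genes, the claudins CLDN3 (0.30) and CLDN4 (0.24) and the factor ELF3 (0.22) rose and the splicing factor ESRP2 fell by 0.21. CLDN4, ELF3 and ESRP2 were not called after quantile normalization.

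Markers of mature colon cells moved one by one rather than as groups. Goblet cell markers held 4 of 30 members that rose and 4 that fell (13.3% each), near the shares of all genes (13% and 12.3%). Their median was 0.00, and without replicate 3 the counts were 3 and 7. WFDC2, a secreted protease inhibitor, had 1.28, 1.21 and 1.33 at 48 h, against -0.03, 0.02 and 0.00 in control cells, and rose 2.42-fold (1.28, SE 0.05, adjusted p = 1.8e-09). MUC2, the main secreted mucin of goblet cells, rose by 0.21 (SE 0.05, adjusted p = 0.00594), a call lost after quantile normalization. CREB3L1 had -1.53, -1.53 and -1.15 at 48 h, against 0.13, 0.00 and -0.08 in control cells, and fell by 1.42 (SE 0.10), and the disulfide isomerase AGR2 fell by 0.55 (SE 0.06). Enterocyte genes had 3 of 35 members that rose and 5 that fell (median 0.00), shares near those of all genes. Carbonic anhydrase CA2 rose by 0.63 (SE 0.07) and keratin KRT20 by 0.51 (SE 0.05), while the nuclear receptor HNF4G fell by 1.18 (SE 0.07). Of 19 enteroendocrine markers 1 passed the test: RFX6, a transcription factor of that lineage, had -1.37, -1.36 and -1.45 at 48 h, against 0.14, 0.00 and -0.12 in control cells, and fell 2.64-fold (-1.40, SE 0.06), level with 8 h (-1.36) and 24 h (-1.35).

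CEACAM genes and surface mucins included 7 that rose and 1 that fell, of 14 measured (median 0.23). The adhesion molecule CEACAM6 had 1.21, 1.09 and 1.13 at 48 h, against 0.00, 0.31 and -0.05 in control cells, and rose by 1.06 (SE 0.08). The transmembrane mucins MUC20, MUC1 and MUC3A rose by 0.60, 0.52 and 0.45, and the lectin LGALS4 fell by 0.37. None of these 5 was called after quantile normalization. Keratins held 6 of 13 members that rose and 0 that fell (median 0.20), and their medians by array were 0.11, 0.18 and 0.40, highest in replicate 3; without it 6 rose and 1 fell, with a median of 0.11. KRT13 had 1.16, 1.03 and 1.19 at 48 h, against 0.00, 0.00 and -0.14 in control cells, and rose by 1.18 (SE 0.06), and KRT80 rose by 1.15 (SE 0.08). Of 25 S100 proteins and annexins 7 rose and 2 fell (median 0.05). S100A3 had 1.35, 1.24 and 1.14 at 48 h, against -0.17, 0.00 and 0.10 in control cells, and rose 2.4-fold; ANXA6 rose 2.02-fold, whereas ANXA10, above, fell. Tight junction and desmosome genes had 4 of 22 members that rose (18.2%) and 2 that fell (9.09%), with a median of 0.08. These shares were not far from the 13% and 12.3% of all genes. Without replicate 3 the counts were 6 and 1. CLDN1 rose by 0.47 (SE 0.07) and CLDN2 fell by 0.41 (SE 0.06), the reverse of their 8 h differences of -0.29 and 0.72.

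**Figure D5:**
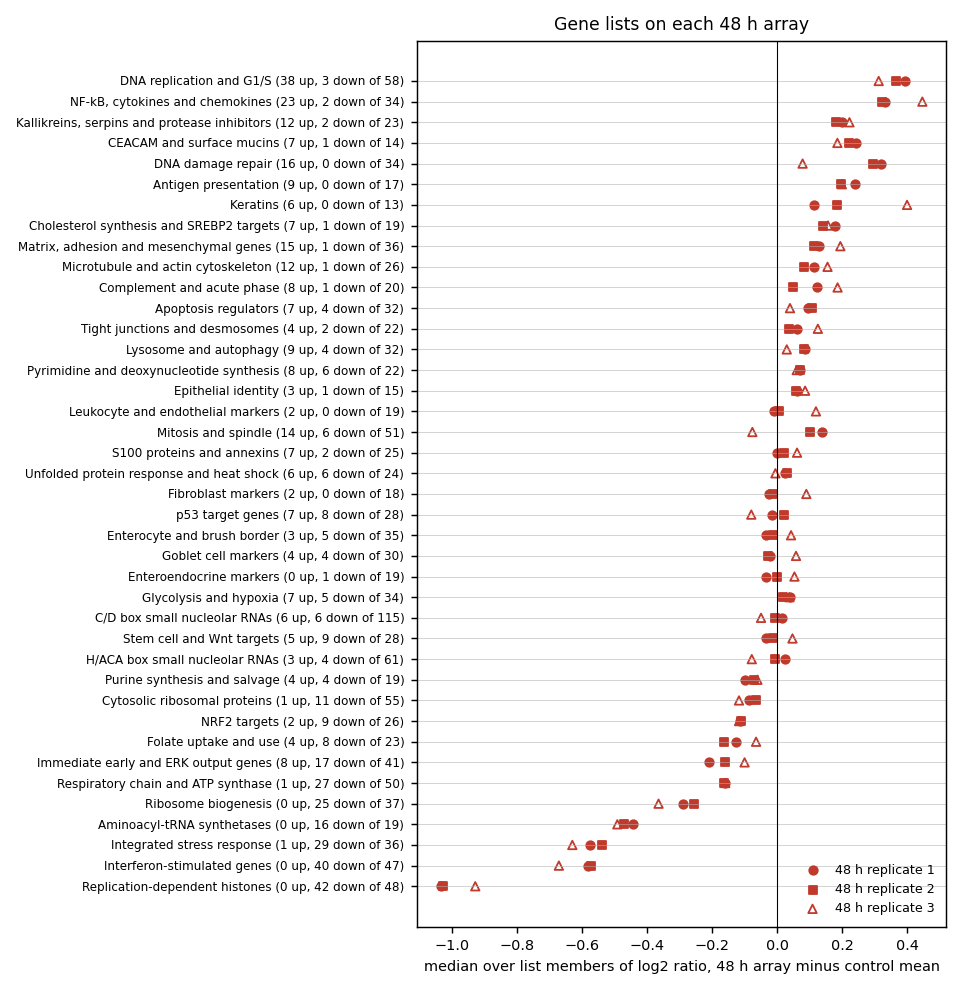
Median over the measured members of each gene list of the log2 ratio on each 48 h array minus the control mean. Circles and squares are replicates 1 and 2 and open triangles replicate 3, and the counts of members that rose and fell stand beside each name. Histones, interferon-stimulated genes, the integrated stress response and tRNA synthetases lay lowest on all 3 arrays, and replicate 3 stood off most for DNA repair, mitosis and keratins.

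Stem cell and Wnt target genes included 5 that rose and 9 that fell, of 28 measured (median -0.02). LGR5, the receptor that marks crypt stem cells, had 0.94, 0.83 and 0.59 at 48 h, against 0.16, 0.00 and -0.11 in control cells, and rose by 0.77 (SE 0.10), with 0.81 at 8 h and 0.13 at 24 h. MYC, a driver of growth, had -0.60, -0.64 and -0.52 at 48 h, against 0.00, 0.14 and -0.02 in control cells, and fell by 0.63 (SE 0.06, adjusted p = 4.96e-06); it was at 0.07 at 8 h and -0.42 at 24 h. The ephrin receptor EPHB3 fell by 0.78 (SE 0.05) and ETS2 by 0.58 (SE 0.04). Immediate early genes and readouts of the ERK pathway held 17 of 41 members that fell and 8 that rose (median -0.16; 18 and 6 without replicate 3). Beside EGR1, DUSP6, the phosphatase of ERK, had -1.23, -1.28 and -1.27 at 48 h, against 0.01, 0.00 and -0.04 in control cells, and fell 2.38-fold (-1.25, SE 0.04, adjusted p = 1.53e-09). The growth factor HBEGF fell by 1.31 (SE 0.06), and the feedback inhibitors SPRY4 and SPRY2 by 1.26 (SE 0.06) and 1.10 (SE 0.10). SPRY4 had -1.25, -1.22 and -1.26 at 48 h, close to each other. CCN1, counted also here, rose.

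NRF2 targets, enzymes of antioxidant defence, had 9 of 26 members that fell and 2 that rose (median -0.11; 9 and 4 without replicate 3), and 16 were lower at 48 h than at 24 h with 0 higher. AKR1B10, an aldo-keto reductase, had -1.02, -0.74 and -1.0 at 48 h, against 0.23, 0.00 and -0.08 in control cells. It fell by 0.97 (SE 0.09, adjusted p = 3.39e-06) with no overlap, where its differences at 8 h and 24 h were 1.53 and 0.17. The malic enzyme ME1 fell by 0.46 (SE 0.05) and UGDH, of glucuronic acid synthesis, by 0.37 (SE 0.06); both had been above control at 8 h (0.25 and 0.19). SLC7A11, counted also in this list, was its largest fall.

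Cholesterol synthesis genes and SREBP2 targets included 7 that rose and 1 that fell, of 19 measured (median 0.17; 6 and 1 without replicate 3). Squalene epoxidase SQLE had 0.45, 0.50 and 0.52 at 48 h, against 0.00, 0.01 and -0.10 in control cells, and rose by 0.52 (SE 0.05), and HMGCS1, an early enzyme of the pathway, rose by 0.49 (SE 0.07), with 0.01 at 24 h. Genes of glycolysis and hypoxia held 7 of 34 members that rose (20.6%) and 5 that fell (14.7%), with a median of 0.00. Of all genes 13% rose and 12.3% fell. ENO2, neuronal enolase, had 1.06, 1.09 and 1.16 at 48 h, against 0.00, 0.10 and -0.01 in control cells, and rose 2.11-fold (1.08, SE 0.05, adjusted p = 8.03e-09), the collagen hydroxylase P4HA2 rose by 0.92 (SE 0.06) and ALDOC by 0.45 (SE 0.05). The angiogenic factor VEGFA fell by 0.71 (SE 0.05) and PDK1, a brake on pyruvate oxidation, by 0.63 (SE 0.06). The list of heat shock and the unfolded protein response had 6 of 24 members that rose and 6 that fell (median 0.04). The small heat shock protein HSPB1 rose by 0.53 (SE 0.05) and HSPH1 by 0.41 (SE 0.06). Among the 6 that fell, DNAJB9 fell by 0.50 (SE 0.09), HERPUD1 by 0.45 (SE 0.05) and the factor XBP1 by 0.41 (SE 0.05), all 3 less than their 8 h differences (-1.14, -1.02 and -0.71). Lysosome and autophagy genes included 9 that rose and 4 that fell, of 32 measured (median 0.06), with LAPTM5 far above the next: the sialidase NEU1 rose by 0.56 (SE 0.07) and the calcium channel MCOLN1 by 0.49 (SE 0.07), and LAMP3 fell by 0.64 (SE 0.14). LAMP3 was not called after quantile normalization.

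Ribosome biogenesis genes turned between 8 h and 48 h. Of 37 measured, 25 fell and 0 rose at 48 h (median -0.30; 24 and 0 without replicate 3), and 35 were lower than at 8 h. DKC1, the pseudouridine synthase of small nucleolar particles, had -0.47, -0.51 and -0.63 at 48 h, against 0.10, 0.00 and -0.01 in control cells. It fell by 0.57 (SE 0.06, adjusted p = 2.74e-05), with 0.47 at 8 h and -0.23 at 24 h. UTP20 fell by 0.51 (SE 0.11), lowest in replicate 3 (-0.43, -0.40 and -0.83), HEATR1 by 0.48 (SE 0.10) and RRP12 by 0.47 (SE 0.06), all factors that process ribosomal RNA. Cytosolic ribosomal proteins held 11 of 55 members that fell (20%) and 1 that rose (median -0.09), and 6 and 1 without replicate 3. Of all genes 12.3% fell with replicate 3 and 11.1% without it, so without it the 6 of 55 were near the share of all genes. RPS24 fell by 0.62 (SE 0.09) and RPS23 by 0.61 (SE 0.07), but processed pseudogenes can share their probes and the values are uncertain. Respiratory chain and ATP synthase genes had 27 of 50 members that fell and 1 that rose (median -0.18), and 20 and 1 without replicate 3. NDUFAB1, a carrier protein tied to complex I, had -0.39, -0.37 and -0.61 at 48 h, against 0.05, 0.00 and -0.06 in control cells, and fell by 0.45 (SE 0.07), and COX6C of complex IV fell by 0.45 (SE 0.08). COX6C was not called after quantile normalization.

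Small nucleolar RNAs, which stood out in replicate 3, had few calls against control when all 3 arrays were used: of 115 C/D box genes 6 rose and 6 fell, and of 61 H/ACA box genes 3 rose and 4 fell, fewer than the shares of all genes. Without replicate 3 the counts for C/D box genes were 13 and 1, and for H/ACA box genes 5 and 4. SNORA75 had 0.90, 0.79 and 0.64 at 48 h, against 0.00, 0.18 and -0.26 in control cells, and rose by 0.80 (SE 0.10), a call lost after quantile normalization. SNORD14E had -0.84, -1.35 and -1.69 at 48 h, against 0.00, 0.10 and -0.09 in control cells, and fell by 1.29 (SE 0.17; -1.10 without replicate 3). Against 24 h, 16 C/D box and 12 H/ACA box genes were higher at 48 h and 0 lower, and without 48 h replicate 3 these counts were 29 and 17 higher and 0 lower. Of all genes 5.26% were higher than at 24 h, and without that array 1201 of 18377. These RNAs lie in introns of host genes, whose transcripts the same probes may read, so their values are uncertain.

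Calls of 5 other genes taken up by the naming rule rested on replicate 3. Without it the pro-apoptotic BAD (adjusted p = 0.114), the junction gene MARVELD2 (0.117), the complex I gene NDUFB6 (0.0669), the ribosomal protein RPL22 (0.101) and SNORD14C (0.119) did not pass in limma. The protease CTSS rose by 0.49 (SE 0.14) although its value in replicate 3 lay within the control range, with 0.82, 0.68 and 0.07 at 48 h, against 0.12, 0.00 and -0.02 in control cells, and its log2 difference without that array was 0.71.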

How the data were processed

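RNA of HT29 cells was measured on Affymetrix HuGene 1.0 ST arrays, 3 for each of control and 8, 24 and 48 h of 70 nM methotrexate. The authors deposited 1 value per probe set and array on a log2 scale. The submitters' processing notes name RMA and hg19 without versions. No source used here says how the ratio to the control median was made, and such values hold no level, background signal or scan batch, so no filter on dim probes was possible.

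Of 28869 probe sets, 19310 named 1 gene, 1752 several and 7807 none in the platform annotation. Probe sets of a gene were averaged (685 genes had more than 1), which gave 18377 genes. One limma model (version 3.58.1, R 4.3.3) held all 12 arrays with a mean for each group, moderated variances (8 residual and 4.71 prior degrees of freedom) and Benjamini-Hochberg adjustment over all genes. Genes with an adjusted p under 0.05 were called. A call at 48 h against control thus uses the spread of all groups. The fit was run on simulated data with independent normal noise, in which a gene had the same spread on every array. That run did not cover the wider spread at 48 h or an array that stands apart, so it cannot judge the fit on these points. The p-values measure the spread between these arrays, which the titles call biological replicates.

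Genes to be named were chosen by rule: the 20 largest rises and 20 largest falls with groups that did not overlap, up to 5 called members of each of 40 lists (or the 2 with the smallest p), the 8 genes that differed most in replicate 3 in each direction, and 12 fixed genes. Small and miscellaneous RNAs, pseudogenes and genes with LOC or open reading frame names were left out before the largest rises and falls were ranked. The members and lists were chosen with earlier results of these data known. Replicate numbers are shared between groups in the titles. Deviations of same-numbered 48 h and control arrays from their group means correlated with r = 0.349, 0.117 and 0.458 over genes. An alternative fit therefore treated the numbers as pairs for this comparison, with replicate as a block. The titles do not state a pairing. Arrays with different numbers were not correlated, so these r values cannot show one. Same-numbered pairs that include an 8 h or 24 h array ranged from -0.452 to 0.472, so the numbers did not pair those arrays alike. Other alternatives were arrays left out, weights, centring, quantile normalization, a robust prior, the filter on spread, every probe set, and stricter thresholds. Promoters are RefSeq's (GRCh38.p14), matched by symbol for 14210 genes.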

Additional observations from a re-analysis of the deposited data

Results flagged for a closer look

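Of the genes named, 39 passed the test in opposite directions at 48 h and at 8 h, both against control. The 17 whose 48 h values differed from their 8 h values by at least 1 on the log2 scale are given here with that difference, 48 h minus 8 h, tested in limma over all genes. Among the 12 that were higher than control at 48 h and lower at 8 h, the difference was 2.23 for IL32, 1.82 for TP53INP1, 1.61 for WFDC2, 1.60 for CFB, 1.56 for TUBA1A and 1.44 for KRT23. It was 1.41 for FOLR1, 1.33 for ANXA6, 1.28 for ICAM1, 1.27 for MUC20, 1.19 for TIMP2 and 1.10 for SLPI. The 5 that were lower than control at 48 h and higher at 8 h were AKR1B10 (-2.49), UTP20 (-1.25), CLDN2 (-1.14), DKC1 (-1.03) and RPS24 (-1.0). The adjusted p of these differences lay between 5.6e-10 for WFDC2 and 2.73e-06 for RPS24.

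Probe sets outside the gene table also differed at 48 h. Of 1752 that name several genes 354 passed (20.2%), 227 higher and 127 lower than control. Of 7807 that name no gene 312 passed (4%), 155 higher and 157 lower. Large differences among those naming several genes were those of probe sets shared by histone genes (H3C10 and H2AC13, -1.72; H4C11 and H4C12, -1.56; H3C4 and H2AC7, -1.26) and by OVOS1P and OVOS2P (1.54), CAV2 and LOC105375463 (1.46), and SNHG1 and SNORD22 (1.23). These values name no single gene.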

How the results depend on the processing

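With 1 array left out at a time, the genes called at 48 h against control ranged from 3704 to 4749 (higher 1991 to 2443, lower 1650 to 2319), members of the gene lists from 477 to 566 (558 with all arrays), probe sets with several genes or none from 507 to 679, genes against 24 h from 1103 to 2149 and against 8 h from 4726 to 5756. A fit of the 6 compared arrays alone, without a block, called 3849 genes against control (1985 higher, 1864 lower). Weights by group spread, which count the more variable 48 h arrays less, called 4212. The replicate block gave 5006 genes against control over all 12 arrays, whose numbers did not pair the 8 h and 24 h arrays. With the 6 compared arrays alone the block gave 4957, an alternative chosen after seeing the data. So was leaving out replicate 3 of both groups, which gave 2322 against 24 h. In the block over 6 arrays MARVELD2 lost its call and LOC107987020 and SNORD58A gained one; the block changed no other call among the named genes. Array weights called 7455 genes (3684 higher, 3771 lower), 5901 against 24 h, 8569 against 8 h and 1688 of the other probe sets. They gave 48 h replicates 1, 2 and 3 weights of 0.797, 6.52 and 0.199, so the 48 h mean rested mostly on replicate 2. Under these weights SLX9, which was high in replicate 3, turned to -0.22. The cause of these changes was not tested. Quantile normalization by construction gives all 12 arrays 1 shared distribution, the mean over them. The standard deviation over genes was 0.0572 to 0.0933 on control arrays and 0.215 to 0.309 on treated arrays, so the step widens control values. It called 1673 genes (747 higher, 926 lower), 291 list members, 184 against 24 h, 2691 against 8 h and 272 other probe sets. How many calls were lost through this widening was not tested. By their construction stricter thresholds called fewer: at an adjusted p under 0.01, 1448 lower and 819 against 24 h; at 1.5-fold, 688 (349 higher, 339 lower), 180 list members, 136 against 24 h and 1033 against 8 h; at 2-fold, 163 (75 and 88), 75 list members, 13 against 24 h and 186 against 8 h. Of 206 named genes called, 153 passed under all 23 settings other than thresholds. No background correction, filter on dim probes or slide block could be run on log2 ratios. The number of arrays limits small differences.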
